A study of Mus musculus with 6 samples.

Results

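Transcripts of 10 genes listed as granulocyte lineage transcription factors were followed in bone marrow neutrophils. These were Cebpa, Cebpb, Cebpd, Cebpe, Cebpg, Gfi1, Spi1, Runx1, Irf8 and the clock gene Per3. They were chosen by gene symbol from the 52636 genes of the deposited table, and each symbol named a single row. The RNA came from C57BL/6N mice aged 10 weeks, with 3 libraries of mice called WT and 3 of mice called LRP5-null. The latter had the genotype LRP5f/f/Lyz2Cre+, that is, floxed alleles of Lrp5 and a Cre recombinase placed in Lyz2, a gene of neutrophils, monocytes and macrophages. The labels call the other group WT and do not say whether those mice carried a floxed allele or Cre. They also do not say whether a library came from a single mouse, so the p-values measure only the spread between these libraries. Expression was deposited as TPM, a unit in which the authors had already accounted for transcript length and sequencing depth, so that levels of different genes can be compared.

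Neutrophils arise in the bone marrow from progenitors that pass through promyelocyte and myelocyte stages before they stop dividing and segment their nuclei. PU.1, the product of Spi1, and RUNX1 act early in this course and open the myeloid program. C/EBPα is needed for the step from progenitor to committed granulocyte precursor, C/EBPε for the specific granules made later, and GFI1 holds the cells on the granulocyte path by repressing genes of the monocyte path, which IRF8 favours. C/EBPβ serves granulopoiesis in emergency, C/EBPδ is induced as granulocytes mature, and C/EBPγ, which has no activation domain of its own, pairs with the other C/EBP proteins and with ATF4. PER3 is a period protein of the circadian clock. It does not bind DNA itself, so of the genes followed here it is the one that is not a transcription factor in the strict sense.

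The libraries differed in ways other than their label. Lrp5 was 1.12, 1.31 and 1.42 TPM in the libraries labelled WT and 1.68, 1.77 and 2.07 TPM in those labelled LRP5-null (two-sided p = 0.1 by exact permutation, the least that 3 libraries against 3 allow), so the targeted transcript was not lower and every direction below rests on the labels. Lyz2, into which Cre was placed, was 24797 to 26791 TPM in the libraries labelled WT and 13360 to 14027 TPM in those labelled LRP5-null (log2 difference -0.91, adjusted p = 0.00351 in limma). Whether the Lrp5 reads covered the floxed part of Lrp5 is not known from the files. Reads in ribosomal RNA made up 1.20% and 1.30% of WT replicates 1 and 2, 3.30% of WT replicate 3 and 2.69% to 2.98% of the libraries labelled LRP5-null. Across 9175 genes, a library's deviation from the mean of all libraries was correlated with the GC content of transcripts, with Spearman's rho of -0.597 and -0.415 in WT replicates 1 and 2 and 0.32 to 0.42 in the other 4 libraries. Reads in introns were 7.78% to 9.0% in the libraries labelled WT and 10.6% to 11.2% in those labelled LRP5-null. Total reads per library were between 249841492 and 340580330. Neutrophil genes marked the cells in every library: Ly6g was 920.2 to 1104 TPM and Csf3r 966.5 to 1218 TPM. Markers of other cells ranged widely. Of T cell genes, Cd3e was at most 0.180 TPM but Cd3d was 9.33 to 10.6 TPM in the libraries labelled WT and 13.4 to 14.5 TPM in those labelled LRP5-null (adjusted p = 0.0651 in limma), and of eosinophil genes, Epx was at most 0.141 TPM but Ear2 was 136.2 to 162.3 TPM over all libraries.

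Sequence is shown first for the regulatory regions the results return to. The RefSeq table of start sites (GRCm38.p6) held windows for 7 of the 10 genes, and none for Cebpd, Cebpe and Spi1. Each window below is the 250 bases upstream of the start site, on the strand of the gene. Gfi1, at the outer of its 2 start sites, is shown for the smallest p of these genes, with all libraries and no correction. Cebpb and Cebpa are shown because they are close relatives whose values split the WT libraries. Per3 is shown for its match to the D-box, the element through which DBP, TEF, HLF and NFIL3 act on clock genes. Capitals mark matches to 9 motifs searched on both strands: C/EBP (TTGCNNAA), the shorter C/EBP core (TTGCG), which overlaps the first motif where G follows TTGC, RUNX (TGTGGT), PU.1 (GAGGAAG), the GFI1 motif, the ETS-IRF composite element, the D-box (TTATGTAA), the E-box (CACGTG) and the TATA box (TATAAA).
Gfi1 (chr5:107725806-107726055, minus strand): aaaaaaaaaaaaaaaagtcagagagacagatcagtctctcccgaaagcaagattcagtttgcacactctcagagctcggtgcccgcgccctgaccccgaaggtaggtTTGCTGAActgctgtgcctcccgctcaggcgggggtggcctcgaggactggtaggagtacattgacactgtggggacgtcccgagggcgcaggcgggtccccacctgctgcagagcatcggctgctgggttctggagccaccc
Cebpb (chr2:167688665-167688914, plus strand): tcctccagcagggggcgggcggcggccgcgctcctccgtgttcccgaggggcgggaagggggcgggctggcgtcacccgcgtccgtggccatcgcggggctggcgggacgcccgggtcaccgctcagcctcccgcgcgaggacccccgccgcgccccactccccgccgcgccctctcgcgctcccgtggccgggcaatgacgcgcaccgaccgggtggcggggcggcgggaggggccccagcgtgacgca
Cebpa (chr7:35119043-35119292, plus strand): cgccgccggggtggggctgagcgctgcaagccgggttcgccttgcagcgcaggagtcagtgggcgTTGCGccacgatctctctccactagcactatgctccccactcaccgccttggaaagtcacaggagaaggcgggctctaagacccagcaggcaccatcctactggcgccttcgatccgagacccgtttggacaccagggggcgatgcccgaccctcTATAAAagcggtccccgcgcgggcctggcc
Per3 (chr4:151044666-151044915, minus strand): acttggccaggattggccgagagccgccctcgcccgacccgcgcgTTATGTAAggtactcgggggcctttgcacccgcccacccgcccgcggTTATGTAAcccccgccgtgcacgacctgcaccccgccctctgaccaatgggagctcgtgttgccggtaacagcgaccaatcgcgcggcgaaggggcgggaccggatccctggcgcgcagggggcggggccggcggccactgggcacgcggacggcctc

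The Gfi1 window held the C/EBP motif on its own strand from 143 to 136 bases upstream of the start site, a motif found in 9.56% of all 32851 windows of the table. The window at the inner Gfi1 start site, not shown, held none of the 9 motifs and was 57.6% GC. The Cebpa window held the C/EBP core from 185 to 181 bases upstream, a match found in 14.5% of all windows, and a TATA box from 30 to 25 bases upstream, found in 12.4%. The Per3 window held the D-box at 2 places, from 205 to 198 and from 158 to 151 bases upstream, where 0.819% of all windows held it at least once. The Cebpb window held none of the 9 motifs and was 81.6% GC, more than 99.3% of all windows. GC content was 66.4% in the Cebpa window, 59.2% in that of Gfi1 and 72.4% in that of Per3, against a median of 52.4% over all windows. A match describes the letters only, and binding was not measured.

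The 10 transcripts spanned a wide range of levels. Spi1, at a mean of 519.4 TPM over all libraries, was above 98.3% of the 9775 genes whose mean reached 1 TPM, which were the genes tested. Cebpe at 321.2 TPM, Cebpb at 228.7 TPM and Cebpd at 113.0 TPM followed. These 4 stood well apart from a middle set made up of Runx1 at 15.5 TPM, Cebpg at 15.4 TPM and Cebpa at 13.5 TPM. Gfi1 was at 7.37 TPM and Irf8 at 1.85 TPM. Per3, at 0.217 TPM, was the one gene of the 10 below the filter of 1 TPM, so 9 were tested. Neighbours in this order kept their place in all 6 libraries, except that Runx1 exceeded Cebpg in 3 libraries of 6 and Cebpg exceeded Cebpa in 5. Levels of those 3 genes overlapped and they are not ranked among themselves. For Cebpe and Cebpb the order held within every library, although the lowest Cebpe value, 267.7 TPM, nearly met the highest Cebpb value, 267.1 TPM, of another library. In RNA of whole preparations, a change in the share of cells with a transcript and a change of its amount per cell cannot be told apart.

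**Figure D1:**
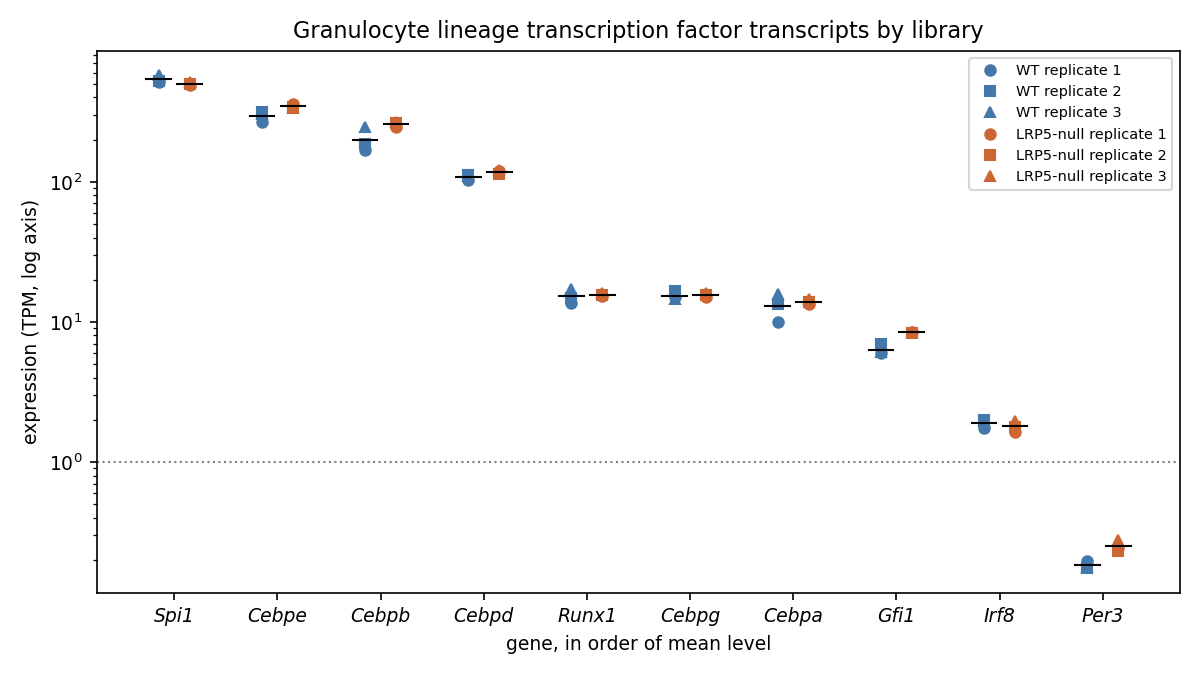
Expression of the 10 genes in each library (vertical axis, TPM on a log scale; horizontal axis, genes in order of mean level). Blue symbols are libraries labelled WT and orange symbols libraries labelled LRP5-null, shapes give the replicate number, black lines the group means, and the dotted line the filter of 1 TPM. Spi1, Cebpe, Cebpb and Cebpd lie above 100 TPM, and Per3 lies below 0.3 TPM.

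Among the C/EBP genes, Cebpe and Cebpd were higher in every library labelled LRP5-null than in any labelled WT, and Cebpb was higher in all but one pairing of libraries. None of the differences passed an adjusted p of 0.05. Cebpe, whose product drives the specific granule genes, lies on chromosome 14 from 55329200 to 55331011 (minus strand, NCBIM37, the mm9 build). Cebpe was 267.7, 316.6 and 304.5 TPM in WT replicates 1 to 3 and 357.1, 344.0 and 336.9 TPM in LRP5-null replicates 1 to 3. The groups did not overlap, and the nearest libraries were 316.6 and 336.9 TPM. The means were 296.3 ± 25.5 and 346.0 ± 10.2 TPM (SD, n = 3 each), a log2 fold change of 0.23 on the scale of log2(TPM + 1) (standard error, SE, 0.078), with an unadjusted p of 0.0215 and an adjusted p of 0.159 from limma over all genes tested. The difference was 0.091 once a trend with the GC content and the length of transcripts had been taken out of each library (adjusted p = 0.347 in limma).

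Cebpb, a gene without introns on chromosome 2 from 167514415 to 167515918 (plus strand), was 167.3 and 185.2 TPM in WT replicates 1 and 2 but 245.3 TPM in WT replicate 3. The libraries labelled LRP5-null were at 244.7, 262.6 and 267.1 TPM. WT replicate 3 therefore lay among the libraries labelled LRP5-null, and the groups overlapped by that library alone. The log2 fold change was 0.39 (SE 0.14, unadjusted p = 0.0219, adjusted p = 0.159 in limma). Without WT replicate 3 the log2 fold change of Cebpb was 0.55 and passed the threshold (adjusted p = 0.0117 in limma), as did 1920 of the 9775 genes. Against WT replicate 3 alone the log2 fold change of Cebpb was 0.072. WT replicate 3 was also the WT library with the higher ribosomal share and with the positive correlation to GC content, and the Cebpb transcript, at 67.2% GC, was the richest in GC of the 10. With the ribosomal share as a covariate the log2 fold change of Cebpb was 0.17 (adjusted p = 0.243 in limma), and with trends of GC and length taken out it was 0.26 (adjusted p = 0.179 in limma). The ribosomal share was low in WT replicates 1 and 2 alone, so the covariate fit is not independent of the comparison with WT replicate 3 alone. The part of ribosomal share and GC content in the Cebpb values was not tested.

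Cebpd, on chromosome 16 from 15887379 to 15888559 (plus strand), is typed as a pseudogene in GENCODE M1, the annotation used for positions here. Cebpd was 102.9, 112.1 and 109.1 TPM in the libraries labelled WT and 118.5, 113.8 and 121.2 TPM in those labelled LRP5-null. The groups were separate, but the nearest libraries, at 112.1 and 113.8 TPM, differed by less than the SD of either group. Its log2 fold change was 0.12 (SE 0.066, adjusted p = 0.294 in limma), and -0.020 with trends of GC and length taken out. Cebpa and Cebpg lie 62.8 kb apart on chromosome 7 (from 35904312 to 35906945, plus strand, and from 35831441 to 35841522, minus strand). Cebpa was 10.0, 13.4 and 15.7 TPM in the libraries labelled WT, which set both its lowest and its highest value, and 13.4, 13.9 and 14.6 TPM in those labelled LRP5-null. Its log2 fold change was 0.11 (SE 0.15, adjusted p = 0.670 in limma) and turned to -0.054 without WT replicate 1. Cebpg was between 14.6 and 16.5 TPM in the libraries labelled WT and between 14.9 and 16.0 TPM in those labelled LRP5-null. The groups overlapped, and its log2 fold change was 0.0083 (SE 0.076, adjusted p = 0.960 in limma).

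Summed over the family, the 5 C/EBP transcripts amounted to 563.2, 643.8 and 689.2 TPM in WT replicates 1 to 3 and to 748.6, 749.9 and 755.8 TPM in the libraries labelled LRP5-null. The sum was thus higher in each library labelled LRP5-null, as were 17.4% of all genes tested. Those libraries differed among themselves far less than the WT libraries did. Transcripts of Cebpe, Cebpb and Cebpd, its largest parts, are 61.6%, 67.2% and 63.0% GC. The sum was not computed with trends of GC and length taken out. Its makeup was similar in both groups. Cebpe made up 47.0% ± 2.54 of the sum in the libraries labelled WT and 46.1% ± 1.57 in those labelled LRP5-null (SD, n = 3 each). Cebpb made up 31.4% ± 3.70 and 34.3% ± 1.45, and Cebpd 17.2% ± 1.24 and 15.7% ± 0.45 (SD, n = 3 each). Cebpa and Cebpg each stayed between 1.78% and 2.69%. Cebpe and Cebpb thus gave most of the C/EBP transcript in every library, and Cebpa little. The ratio of Cebpb to Cebpa, which does not depend on how a library was scaled, was 16.7, 13.8 and 15.6 in the libraries labelled WT and 18.3, 18.8 and 18.3 in those labelled LRP5-null, a comparison chosen after the values were seen. The other ratios computed within the family, Cebpe to Cebpa, Cebpe to Cebpd and Cebpb to Cebpg, overlapped between the groups.

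**Figure D2:**
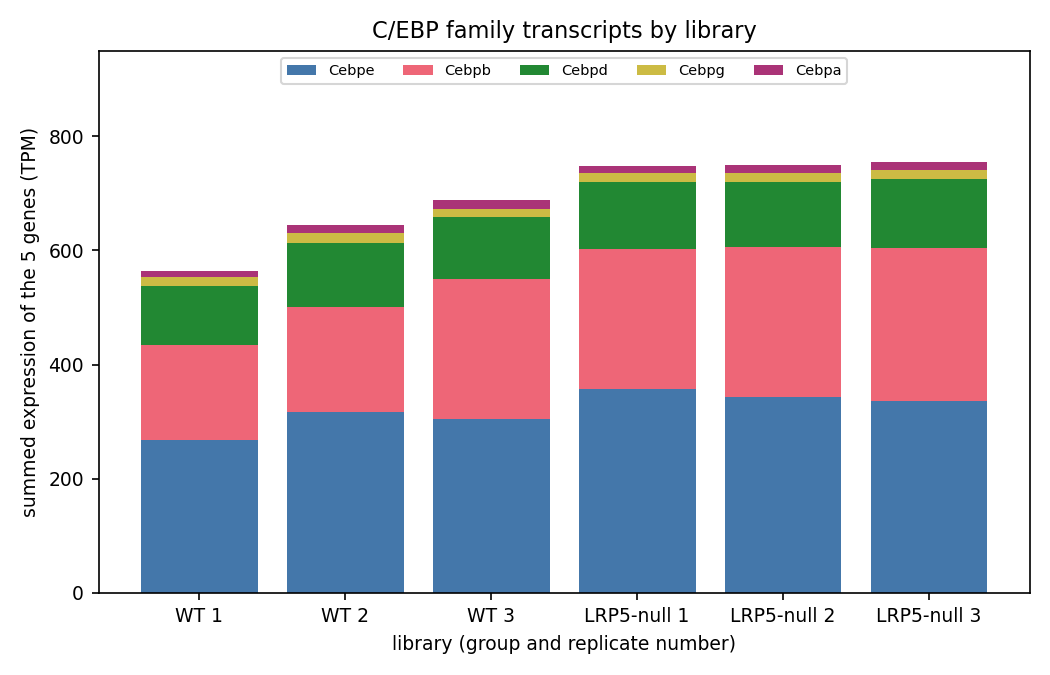
Stacked bars of the TPM of the 5 C/EBP genes in each library (vertical axis, summed TPM from 0; horizontal axis, libraries by label and replicate number). The 3 bars of the libraries labelled LRP5-null reach 748.6 to 755.8 TPM and those of the libraries labelled WT 563.2 to 689.2 TPM, with Cebpe the largest share in each.

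With all libraries and no trend taken out, Gfi1 had the smallest p of the 9 transcription factor genes tested. This zinc finger repressor, whose loss leaves mice without mature neutrophils, lies on chromosome 5 from 108145674 to 108155056 (minus strand). Gfi1 was 5.95, 6.92 and 6.12 TPM in WT replicates 1 to 3 and 8.40, 8.39 and 8.41 TPM in LRP5-null replicates 1 to 3. The groups were well separated, and the libraries labelled LRP5-null were almost alike. The means were 6.33 ± 0.52 and 8.40 ± 0.010 TPM (SD, n = 3 each), which is 1.33 times the WT mean, and the log2 fold change was 0.36 (SE 0.080). With an unadjusted p of 0.00232 it ranked 251st of 9775 genes, and the limma adjusted p was 0.0892, so it did not pass the threshold over all genes. In all 19 alternative fits Gfi1 kept its direction, with log2 fold changes between 0.28 and 0.42. It passed the threshold in 1 of them, without WT replicate 3 (0.34, adjusted p = 0.0360 in limma), where 1920 of 9775 genes passed. Its difference was as large against WT replicate 3 alone (0.40). Without trends of GC and length it was 0.28 (adjusted p = 0.120 in limma). Its paralog Gfi1b, named here after its values were seen, was 0.121 to 0.232 TPM in the libraries labelled WT and 0.306 to 0.434 TPM in those labelled LRP5-null.

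Spi1, on chromosome 2 from 90922547 to 90955913 (plus strand), was the one tested gene of the 10 that was lower in every library labelled LRP5-null. Spi1 was 518.3, 520.9 and 574.4 TPM in the libraries labelled WT and 490.5, 497.3 and 514.8 TPM in those labelled LRP5-null. The groups did not overlap, although the nearest libraries were at 518.3 and 514.8 TPM. Its log2 fold change was -0.10 (SE 0.065, adjusted p = 0.379 in limma), it ranged from -0.20 to -0.041 over 19 alternative fits, and it was never called. Set against Spi1 within each library, Cebpe was 0.52, 0.61 and 0.53 times its level in the libraries labelled WT and 0.73, 0.69 and 0.65 times in those labelled LRP5-null. The ratio of Gfi1 to Spi1 was likewise higher in each library labelled LRP5-null, at 0.0163 to 0.0171 against 0.0107 to 0.0133. These ratios were chosen after the values were seen and are given without a test.

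Runx1, which spans chromosome 16 from 92601712 to 92826311 (minus strand), was 13.7, 14.9 and 17.3 TPM in the libraries labelled WT and 15.4, 15.5 and 16.0 TPM in those labelled LRP5-null. The WT libraries enclosed the others. The log2 fold change was 0.036 (SE 0.094, adjusted p = 0.842 in limma). Irf8, on chromosome 8 from 123260258 to 123280594 (plus strand), encodes the factor that favours monocytes and dendritic cells over granulocytes. Irf8 was 1.74, 2.001 and 1.97 TPM in the libraries labelled WT and 1.64, 1.79 and 1.96 TPM in those labelled LRP5-null, at overlapping levels above those of 11.8% of genes tested. Its log2 fold change was -0.056 (SE 0.086, adjusted p = 0.720 in limma), and ranged from -0.099 without LRP5-null replicate 3 to -0.015 without LRP5-null replicate 1. Of the monocyte and macrophage markers, 7 of 10 were at 1 TPM or more, and their summed level was 862.9 to 1020 TPM in the libraries labelled WT and 935.9 to 1007 TPM in those labelled LRP5-null, most of it from Ly6c2. Cx3cr1 was at most 0.346 TPM and Klf4 at most 0.538 TPM. Dendritic cell markers summed to 15.1 to 20.04 TPM and 22.1 to 23.0 TPM in the same order, with 3 of 8 at 1 TPM or more and Xcr1 at 0 in 5 libraries. Itgax, at 7.17 to 9.73 TPM and 11.8 to 13.1 TPM, was the one dendritic cell marker whose groups did not overlap. B cell markers summed to 26.99 to 37.7 TPM and 30.5 to 30.8 TPM. The part of these cells in the level of Irf8 was not tested.

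Per3, on chromosome 4 from 150377761 to 150418774 (minus strand), was 0.198, 0.175 and 0.177 TPM in the libraries labelled WT and 0.241, 0.233 and 0.279 TPM in those labelled LRP5-null. The groups did not overlap (two-sided p = 0.1 by exact permutation, the least possible), but all values were far below the filter and TPM does not tell how many reads lie behind them. On the scale of log2(TPM + 1) the difference of Per3 was 0.080. Its paralogs were far more abundant. Per1 was 22.2, 24.3 and 30.0 TPM in the libraries labelled WT and 36.5, 38.6 and 42.4 TPM in those labelled LRP5-null (log2 fold change 0.61, adjusted p = 0.0693 in limma), and Per2 was 5.35 to 6.72 TPM against 7.84 to 8.92 TPM (0.46, adjusted p = 0.0892 in limma). With trends of GC and length taken out both were called, at 0.49 (adjusted p = 0.0275 in limma) and 0.36 (adjusted p = 0.0423 in limma). They were not called when the replicate number was added to that fit (adjusted p = 0.0975 and 0.132 in limma), and against WT replicate 3 alone Per1 was at 0.37 and Per2 at 0.28 (adjusted p = 0.227 and 0.288 in limma). Within a library, the ratio of Per3 to Per1 overlapped between the groups. Of the 11 clock genes tested, 2 had an unadjusted p under 0.05, both higher, and 0 an adjusted p under 0.05 in limma. Over all genes tested, 14.4% were higher at that unadjusted p.

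**Figure D3:**
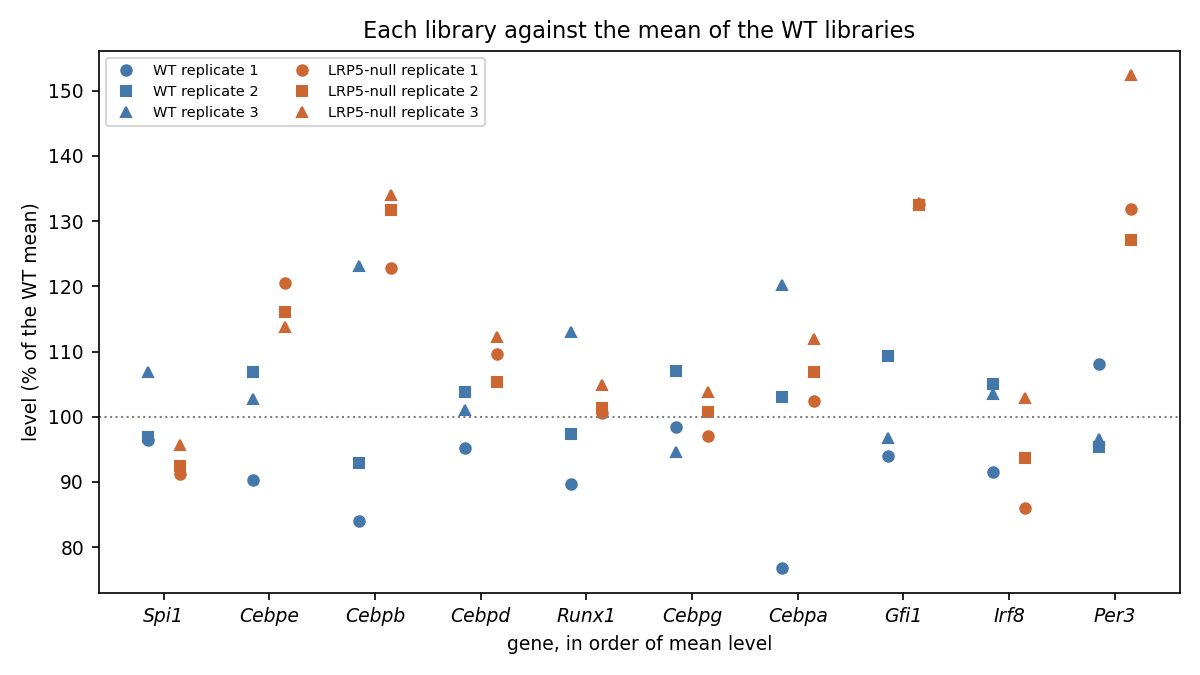
Level of each gene in each library as a percentage of the mean of the libraries labelled WT (vertical axis; the dotted line is 100%), with genes in order of mean level. Blue symbols are libraries labelled WT and orange symbols those labelled LRP5-null. The Gfi1 values of the libraries labelled LRP5-null fall on a single point near 133%, and WT replicate 3 (blue triangles) is the highest WT library for Spi1, Cebpb, Runx1 and Cebpa.

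Over the 9 genes tested, none passed an adjusted p of 0.05 in limma, where 0.532% of all genes did, 0.266% higher and 0.266% lower. At an unadjusted p under 0.01, 1 of the 9 was counted, Gfi1, beside 7.64% of all genes and 4.79% in the higher direction. At an unadjusted p under 0.05, 3 of the 9 (33.3%) were counted, Gfi1, Cebpe and Cebpb, all higher in the libraries labelled LRP5-null, beside 23.5% of all genes, 14.4% higher and 9.12% lower. Groups did not overlap for 4 of the 9, with Gfi1, Cebpe and Cebpd higher and Spi1 lower, beside 29.7% of all genes, 17.4% higher and 12.3% lower. The median log2 fold change was 0.11, beside 0.040 over all genes tested. Over so few genes, nothing particular to them is read from these shares. The libraries labelled LRP5-null varied less among themselves than the libraries labelled WT for 8 of the 9 genes, Irf8 being the exception, as they did for 72.8% of all genes tested. The median SD on the log2 scale over the 9 genes was 0.045 in the libraries labelled LRP5-null and 0.10 in those labelled WT.

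**Figure D4:**
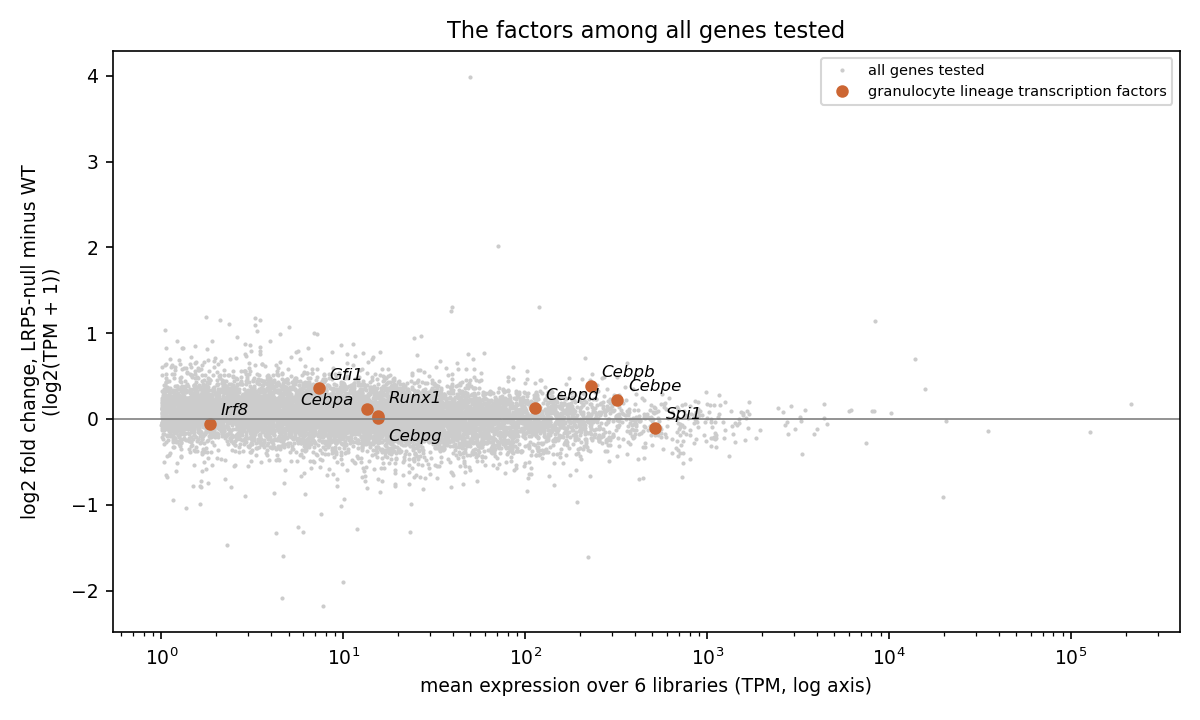
Log2 fold change on the log2(TPM + 1) scale, libraries labelled LRP5-null minus those labelled WT (vertical axis), against mean TPM over 6 libraries (horizontal axis, log scale). Grey points are all 9775 genes tested and orange points the 9 transcription factor genes tested. Cebpb at 0.39 and Gfi1 at 0.36 are the highest of the 9, and Spi1 at -0.10 is the lowest.

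The choice of libraries mattered more for some genes than for others. Gfi1, Cebpe and Cebpb stayed above 0 and Spi1 and Irf8 below 0 in every alternative fit. Cebpa, Runx1, Cebpg and Cebpd changed sign in at least 1 fit each. Against WT replicate 3 alone, the log2 fold changes of Cebpa and Runx1 were -0.16 and -0.14, where they had been 0.25 and 0.12 without that library. For Cebpa and Runx1 the sign therefore depended on which WT libraries were compared.

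**Figure D5:**
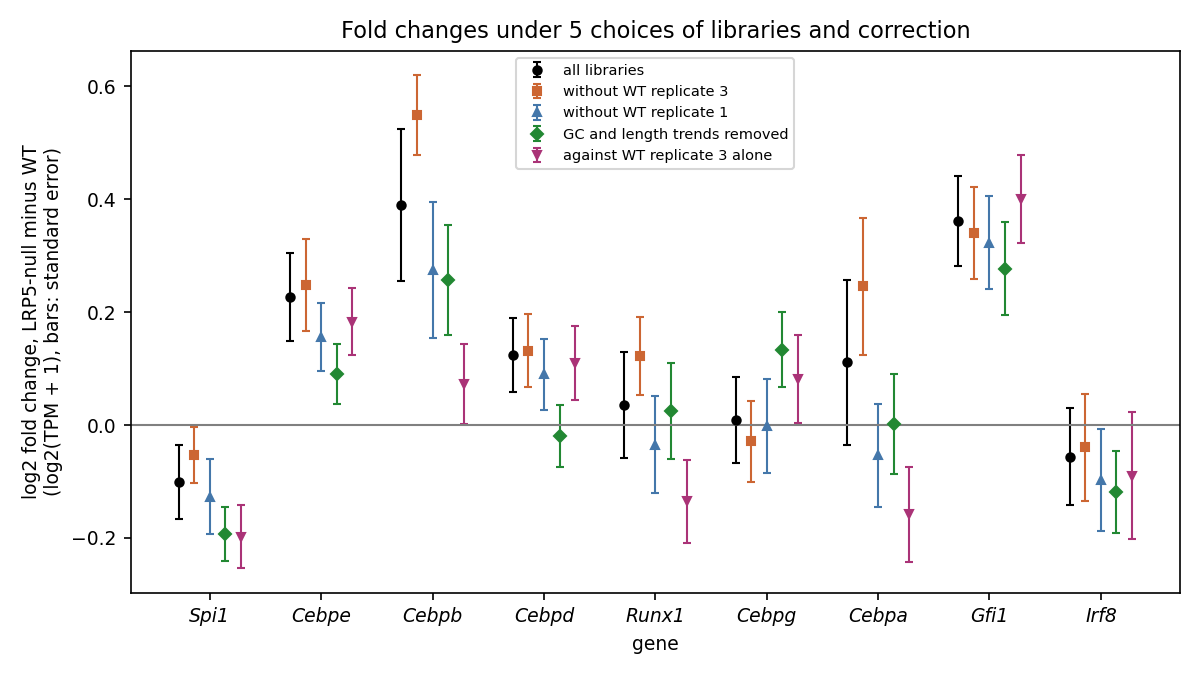
Log2 fold change of the 9 genes tested, libraries labelled LRP5-null minus those labelled WT (vertical axis, log2(TPM + 1) scale; bars are standard errors from limma), under 5 choices given by colour and symbol. Gfi1 stays between 0.28 and 0.40 under all 5, while Cebpa runs from -0.16 to 0.25.

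Partners and regulators of these factors were read from the same fit. Of 12 tested partners and regulators of C/EBP proteins, 0 had an adjusted p under 0.05 in limma. At an unadjusted p under 0.05, 3 were higher and 1 lower, where 14.4% of all genes tested were higher and 9.12% lower. The smallest p belonged to Batf, a bZIP partner, at 15.1 to 16.8 TPM in the libraries labelled WT and 20.5 to 23.0 TPM in those labelled LRP5-null (log2 fold change 0.41, adjusted p = 0.0675 in limma), and to Rfwd2, which encodes the COP1 ubiquitin ligase that acts with Tribbles proteins to degrade C/EBPα, at 59.4 to 68.3 against 52.9 to 55.5 TPM (-0.27, adjusted p = 0.129 in limma). For both genes the groups were separate. Rfwd2 was at -0.15 with trends of GC and length taken out and at -0.14 against WT replicate 3 alone (adjusted p = 0.149 and 0.376 in limma). Of 10 tested corepressors and partners of GFI1, none was called by limma and 1 had an unadjusted p under 0.05. Their median log2 fold change was 0.10, beside 0.040 over all genes tested. Ehmt2, the H3K9 methyltransferase G9a that GFI1 recruits, was 3.92, 4.26 and 6.29 TPM in the libraries labelled WT and 6.25 to 6.79 TPM in those labelled LRP5-null (0.40, adjusted p = 0.173 in limma). WT replicate 3 again lay with the libraries labelled LRP5-null. Without it Ehmt2 was at 0.57 (adjusted p = 0.0121 in limma), in a fit that called 1920 of 9775 genes. Against WT replicate 3 alone Ehmt2 was at 0.052, and with the ribosomal share as a covariate at 0.17 (adjusted p = 0.361 in limma). Cbfa2t2, a corepressor of the ETO family, was at 0.17 (adjusted p = 0.289 in limma), and at 0.067 with quantile scaling.

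Among 19 tested partners and relatives of PU.1 and IRF8, 0 had an adjusted p under 0.05 in limma. At an unadjusted p under 0.05, 2 were higher and 3 lower, beside 14.4% and 9.12% of all genes tested. Their median log2 fold change was -0.00099, beside 0.040 over all genes tested. Irf9, the DNA-binding part of the interferon-activated ISGF3 complex, was 72.3, 84.5 and 72.8 TPM in the libraries labelled WT and 57.8 to 59.5 TPM in those labelled LRP5-null (-0.37, adjusted p = 0.0855 in limma). Fli1, an ETS factor of blood and vessel cells, was 82.8 to 107.8 TPM against 69.3 to 74.5 TPM (-0.36, adjusted p = 0.127 in limma). Both were lower in every library labelled LRP5-null, and Fli1 was at -0.20 against WT replicate 3 alone (adjusted p = 0.289 in limma). Of 8 tested genes of the RUNX and CBF families and their corepressors, 0 had an unadjusted p under 0.05. The smallest p were those of Tle3, a Groucho corepressor, and of Runx3, with log2 fold changes of 0.17 and 0.21 (adjusted p = 0.242 and 0.293 in limma). Runx3 ranged from 0.13 without WT replicate 2 to 0.32 without WT replicate 3, where it was among 1920 genes called (adjusted p = 0.0438 in limma). Tle3 was at 0.070 with trends of GC and length taken out. Runx1t1 was listed at 0 in every library. Of 36 other blood transcription factors tested, 1 was called. Nfe2, the large subunit of NF-E2, fell from 303.9, 224.6 and 237.3 TPM in the libraries labelled WT to 122.1, 124.4 and 142.6 TPM in those labelled LRP5-null (-0.96, SE 0.12, adjusted p = 0.0357 in limma). The call for Nfe2 was lost in 9 of 19 alternative fits, among them those without WT replicate 2 and without each of the libraries labelled LRP5-null, and its direction was kept in all 19.

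Genes known as targets of these factors differed in direction. Of 13 rows tested for primary granule proteins and receptors that depend on C/EBPα, PU.1 and RUNX1, 0 had an adjusted p under 0.05 in limma. Itgam gave 2 of these rows, which may share reads. At an unadjusted p under 0.05, 3 were higher and 0 lower, where 14.4% of all genes tested were higher and 9.12% lower. The median log2 fold change of the 13 rows was 0.16, beside 0.040 over all genes tested. Ms4a3, a marker of granulocyte and monocyte progenitors, was 15.5 to 17.9 TPM in the libraries labelled WT and 19.9 to 22.2 TPM in those labelled LRP5-null (0.32, adjusted p = 0.109 in limma), and Elane, neutrophil elastase, 3.18 to 3.88 against 4.37 to 4.94 TPM (0.32, adjusted p = 0.124 in limma). With trends of GC and length taken out they were at 0.54 and 0.18 (adjusted p = 0.0535 and 0.282 in limma). Of 12 specific granule and oxidase genes tested, 0 had an adjusted p under 0.05, 1 was higher and 1 lower at an unadjusted p under 0.05, and the median was -0.060. Camp, which encodes the cathelicidin peptide and needs C/EBPε, was 12832 to 14306 TPM in the libraries labelled WT and 16896 to 18244 TPM in those labelled LRP5-null (0.35, adjusted p = 0.0648 in limma). Mmp8, neutrophil collagenase, went the other way, from 3646 to 4124 TPM down to 2703 to 3022 TPM (-0.41, adjusted p = 0.0648 in limma). The groups of both genes were separate, in opposite directions, and with trends of GC and length taken out Camp was at 0.23 and Mmp8 at -0.27. Without WT replicate 3, where 1920 genes were called, Batf, Rfwd2, Irf9, Fli1, Camp and Mmp8 were called as well, with adjusted p between 0.0175 and 0.0259 in limma.

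Genes of early precursors, a list that also holds Ms4a3 and Elane, were summed in each library. The sum over 12 genes was 240.1 to 258.7 TPM in the libraries labelled WT and 278.7 to 287.6 TPM in those labelled LRP5-null, without overlap. Of the 10 tested, 0 had an adjusted p under 0.05 in limma. Their median log2 fold change was 0.28, beside 0.040 over all genes tested. At an unadjusted p under 0.05, 6 were higher and 0 lower, where 14.4% of all genes tested were higher and 9.12% lower. The other 4 tested did not pass that threshold. They were Myb at -0.048, Top2a at 0.023, Mpo at 0.12 and Prtn3 at 0.33, each with overlapping groups. Cd34 was below 0.37 TPM throughout. Neutrophil markers summed to 398597.5 to 443039.7 TPM and 427136.6 to 447480.0 TPM in the same order, and erythroid markers to 48.6 to 57.8 TPM and 43.0 to 54.7 TPM. T and NK cell markers summed to 13.01 to 14.8 TPM and 16.7 to 18.3 TPM, most of it from Cd3d. Of the other T and NK cell markers, Cd2 and Gzma were lower in every library labelled LRP5-null and the rest overlapped between groups. Eosinophil and basophil markers summed to 150.3 to 174.6 TPM and 152.9 to 161.1 TPM. At an unadjusted p under 0.05, 2 of 13 neutrophil markers tested were higher and 1 lower, 1 of 7 monocyte and macrophage, 1 of 3 dendritic cell, 1 of 2 T and NK cell and 1 of 4 eosinophil and basophil markers were higher, 1 of 4 erythroid markers was lower, and 0 of 6 B cell markers were counted. Of all these marker genes, Prg2 alone, a granule protein of eosinophils named after its value was seen, was called by limma (0.91, adjusted p = 0.0341). Prg2 was 0.850 to 1.16 TPM in the libraries labelled WT, near the filter of 1 TPM, and 2.33 to 3.13 TPM in those labelled LRP5-null. The other eosinophil and basophil markers tested, Ear2, Siglecf and Mcpt8, overlapped between groups. Of those with a mean below the filter, Epx and Ccr3 were higher and Ms4a2 lower in every library labelled LRP5-null. Epx was at most 0.034 TPM in the libraries labelled WT and 0.067 to 0.141 TPM in those labelled LRP5-null. The rest of the list overlapped. The part of precursor cells in the levels of Gfi1 and Cebpe was not tested.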

How the data were processed

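Transcript levels in neutrophils from bone marrow were available for 6 libraries, 3 of each label. The authors deposited TPM values, already divided by transcript length and scaled to a fixed total. The submitters' processing notes name mm9 and DESeq2, and the tool that gave the TPM is not given in the sources used here. A table of read statistics that the authors deposited gives counts of reads, shares in percent, a ratio for bias at transcript ends, and a coverage variation score. The labels name a Percoll gradient and an mRNA kit, and the methods name sorting of CD11b+ and Ly6G+ cells and a total RNA kit. TPM keeps no depth, so errors come from the spread between libraries alone.

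The 9775 genes averaging 1 TPM or more were tested in limma 3.58.1 under R 4.3.3, on log2(TPM + 1) values. The variance was allowed to follow the mean, and p-values were adjusted over these genes by Benjamini and Hochberg. This scale understates changes of low genes. GC content and length came from GENCODE M1 on NCBIM37, matched by identifier for 93.9% of genes, from the longest protein-coding transcript or, without one, the longest transcript. The fit was tested on simulated data. Genes outside the 10 were named by a fixed rule: from each list of partners, regulators or targets those with an adjusted p under 0.05, otherwise the 2 of smallest p, together with Per1 and Per2, Lrp5 and Lyz2. Cell type and precursor markers, Gfi1b and Runx1t1 lie outside this rule and were chosen after their values were seen. The genes and lists were chosen with earlier results of these data known. Alternatives covered pseudocount, filter, scaling, variance model, each library left out, the replicate number, GC and length trends, the ribosomal share and WT replicate 3 alone.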

Additional observations from a re-analysis of the deposited data

How the results depend on the processing

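Counts of genes called by limma at an adjusted p of 0.05, 52 with all libraries, ranged from 2 to 1920 when a library was left out, the most without WT replicate 3. The count was 3 without a filter, 29 with a mean of at least 5 TPM, 96 (71.9% of them higher, against 50%) after rescaling without abundant genes, 139 with the GC and length trends removed, and 6 both with the ribosomal share as a covariate and against WT replicate 3 alone. Of the transcription factor genes, 0 passed with all libraries and 0 to 2 with a library left out, both of the 2, Gfi1 and Cebpb, without WT replicate 3. The number with an unadjusted p under 0.05, 3 with all libraries, ranged from 1 to 3 when a library was left out and was 1 without LRP5-null replicate 2. The Per3 difference of 0.080 was 0.31 with a pseudocount of 0.1. Of 170 refitted log2 fold changes of the 9 genes, 14 changed sign: Cebpa to -0.054 without WT replicate 1 (range without a library -0.054 to 0.25), -0.082 with the ribosomal share as a covariate and -0.16 against WT replicate 3 alone, Cebpd to -0.020 with the GC and length trends removed, with or without the replicate block, Runx1 to -0.0051 with median-ratio scaling, -0.035 without WT replicate 1 (range without a library -0.035 to 0.12), -0.083 with the covariate and -0.14 against WT replicate 3 alone, and Cebpg to -0.033 with median-ratio scaling, -0.013 with quantile scaling, and -0.0021, -0.028 and -0.013 without WT replicate 1, WT replicate 3 and LRP5-null replicate 3 (range without a library -0.028 to 0.055). Runx3 was -0.0063 against WT replicate 3 alone. The cause was not tested. Same-numbered libraries correlated at 0.229, -0.0075 and 0.131 in their deviations from the group means, so the replicate numbers were not taken as pairs, and WT replicate 2 did not correlate best with its own number. With the replicate block 4 genes were called, with the block and the GC and length trends removed 5, and in both 0 of the 9. Median-ratio scaling moved the median log2 fold change of all genes from 0.040 to 0.0032.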
